A study of Mus musculus with 8 samples.

Results

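The semaphorin, plexin, ephrin and related guidance genes are 38 of the 35975 genes summed from the deposited transcript tables, and were taken by name: 15 semaphorins, 7 plexins with neuropilin 2 (Nrp2), 3 ephrins with 5 Eph receptors, 2 Slits with 2 Robo receptors and the netrin receptor Unc5b, and the GTPases Rnd1 and Rnd3. The rule itself uses no measured value. RNA came from subcutaneous fibrosarcomas, tumors grown from implanted cells of the same strain in wild-type C57BL/6 mice, with no other allele or agent named. Digested tumors were freed of red cells and passed over magnetic columns, which gave 4 iron positive libraries from the cells held by the column and 4 iron negative libraries from the cells that flowed through. Each fraction had 1 library for each of the tags 3L, 3R, 4R and 5L, and values below are listed in that order. The labels do not give age or sex or say whether tags are separate animals, so p-values cover only the spread among these libraries.

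Guidance genes encode ligands and receptors that first became known for steering growing axons and that also steer vessels and migrating immune cells. Semaphorins bind plexins, and the secreted class 3 semaphorins mostly need a neuropilin as the ligand-binding partner. Ephrins sit in the membrane and bind Eph receptor tyrosine kinases on neighbouring cells, with signals running both ways, and in vessels ephrin-B2 marks arteries and its receptor EphB4 marks veins. Slits are secreted ligands of Robo receptors, Unc5b is a netrin receptor of vessels and neurons, and Rnd proteins act beside plexins on the cytoskeleton.

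The series title names macrophages and the labels name no antibody sort, and both fractions were rich in macrophage transcripts. Library totals were 19.04 to 24.31 M estimated counts. A list of 20 macrophage genes summed to 38840 to 42760 CPM (library-scaled counts, with factors from edgeR's TMM method) in the iron negative and 28870 to 37780 CPM in the iron positive libraries. A list of 12 endothelial genes summed to 35.3, 69.9, 56.6 and 36.4 CPM in the iron negative and 172.6, 1428, 853.4 and 224.1 CPM in the iron positive libraries, so the iron positive libraries 3R and 4R stood above 3L and 5L. A list of 10 pericyte and smooth muscle genes summed to 23.1 to 46.5 against 68.6 to 507.1 CPM, and 10 fibroblast and fibrosarcoma genes to 129.1 to 392.0 against 496.5 to 4714 CPM. All 12 endothelial genes, 7 of 9 tested pericyte genes and 6 of 9 tested fibroblast genes were higher in iron positive libraries, and 9 of 20 macrophage genes were lower. All 6 skeletal muscle genes were also higher, with sums of 2.46 to 4.19 against 18.8 to 57.7 CPM. Of the platelet list 1 of 4 genes was higher (Ppbp), with sums of 400.9 to 490.6 against 445.7 to 1576 CPM, and of the neutrophil list 2 of 4 tested (S100a8 and S100a9), with sums of 70.3 to 83.0 against 67.9 to 94.9 CPM. Of the Schwann cell list Sox10 was at 0 in every library, and the list summed to 1.25 to 2.08 against 1.585 to 2.62 CPM. Of the keratinocyte list Krt5, Krt15 and Krt1 were at 0, with sums of 0.619 to 0.940 against 0.598 to 1.05 CPM. In each of these lists 1 gene was tested, without a call. The dendritic cell list had 1 of 4 tested genes higher. No gene of the red cell list was called, with sums of 7.425 to 40.1 against 28.5 to 140.2 CPM. The T and NK cell and the B and plasma cell lists had no calls either. The part of these cells in the results below was not tested, and in bulk RNA fewer cells of a type and less RNA per cell cannot be told apart.

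Guidance genes were mostly higher or without a call in the iron positive fraction: of 36 tested, 19 were higher, 2 lower and 15 did not pass. Across all 13343 genes tested, 8.49% were higher and 5.21% lower (quasi-likelihood F-test of edgeR with p adjusted by Benjamini-Hochberg and a limit of 0.05, the source of every adjusted p below unless another tool is named). The median log2 fold change, iron positive minus iron negative, was 1.65 over the 36 tested members and -0.006 over all tested genes. In 23 members all 4 iron positive libraries lay above all 4 iron negative ones, and in 2 members all lay below, against 11.2% and 10.3% of all genes. Sema3d and Sema3e were too low for the test. Of the 36, 10 passed the filter on low counts only through the iron positive libraries, namely Sema3a, Sema3c, Sema3g, Sema6a, Efna1, Epha4, Ephb1, Ephb4, Robo1 and Robo4, and such genes could hardly show anything but a higher iron positive level. All 10 are among the 23 members whose iron positive libraries lay above, and that count was not redone without them. Among the other 26 members 11 were higher, 2 lower and 13 had no call, with a median of 0.89, and among the 12077 genes that reached the filter in the iron negative libraries 6.0% were higher and 5.75% lower.

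**Figure D1:**
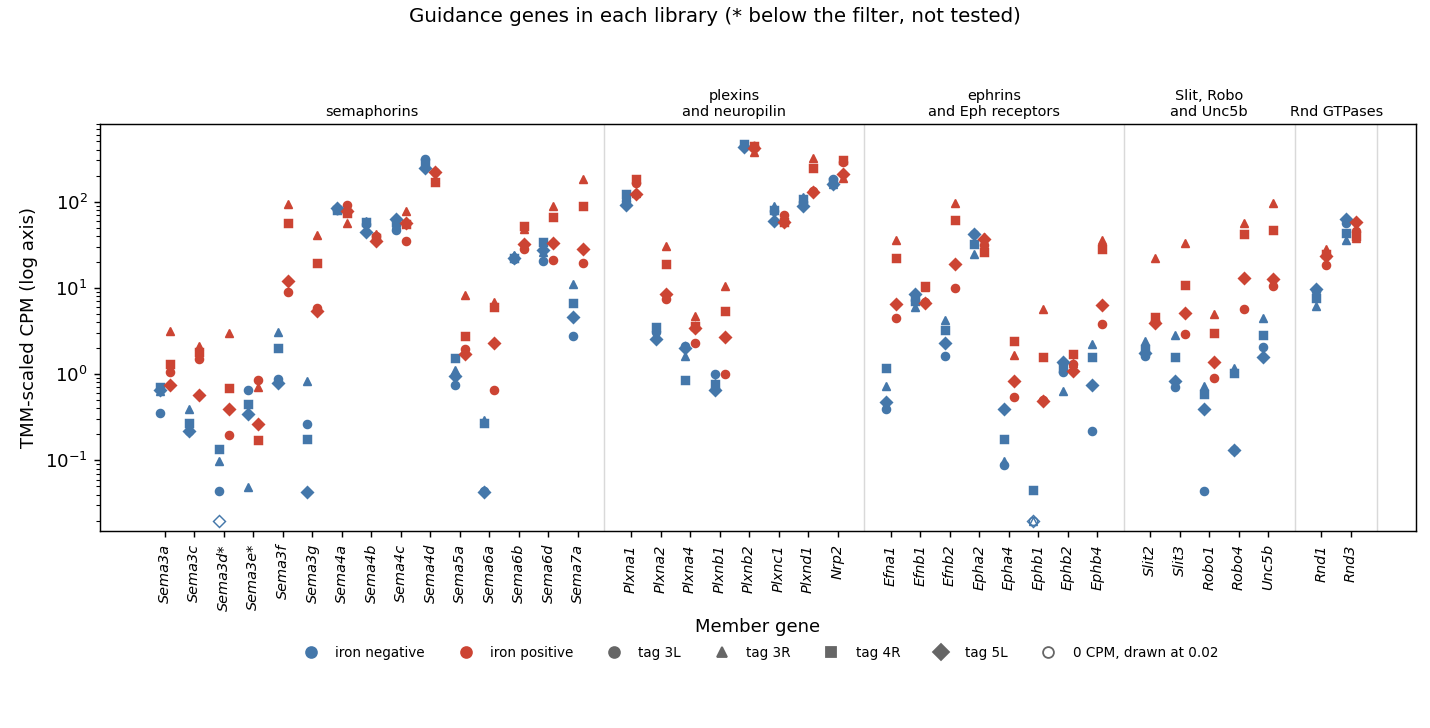
TMM-scaled CPM on a log axis for each of the 38 members, with iron negative libraries in blue, iron positive libraries in red, and a marker shape for each tag. Open symbols are values of 0 drawn at 0.02, and a reader should see wide gaps between the fractions for genes such as Sema3g and Robo4. Plxnb2 overlaps in part, and the iron negative values of Sema4a lie within its iron positive range.

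The number of calls, of members as of all genes, leaned on the iron negative libraries. In edgeR no gene was called in either direction without iron negative 3L, 3R or 4R, members included, and without 5L the calls were 26 genes higher and 12 lower, among them Rnd1 (higher) and Sema4b (lower). The fold changes of called members kept their direction in those 4 fits and moved by unequal amounts. Rnd1 was at 1.43 to 1.62, Robo4 at 5.22 to 6.06 and Efnb2 at 3.83 to 4.26 on the log2 scale. Wider ranges were those of Ephb1 at 6.60 to 8.48, Sema3g at 5.38 to 6.72 and Epha4 at 2.58 to 3.42. In the same fits 24 to 25 of the 36 or 37 tested members were higher at an unadjusted p under 0.05, against 15.0% to 15.7% of all genes. DESeq2, added on the same reduced sets after the data were seen, called 22 to 23 members higher, against 10.3% to 11.3% of all genes. Both ranges of counts include members that passed the main filter only through the iron positive libraries, and they were not redone without them. On all libraries limma voom called Rnd1 and Ephb1 higher and Sema4b lower. Without iron positive 4R edgeR called 11 members higher, against 2.96% of all genes.

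Class 3 semaphorins, the secreted ligands that act through neuropilins, held the largest differences in the semaphorin family. Sema3g, known from arterial endothelium, stood at 0.265, 0.8286, 0.179 and 0.0435 CPM in the iron negative and at 5.88, 40.8, 19.2 and 5.42 CPM in the iron positive libraries. The fractions did not overlap, and 3R and 4R were the highest iron positive libraries. The difference was 5.77 ± 0.94 (log2 fold change ± SE, n = 4 per fraction, adjusted p = 0.0173). Sema3f, a neuropilin 2 ligand (chr9:107681500-107710475, GRCm38, minus strand), was at 0.884, 3.07, 2.02 and 0.783 CPM against 8.92, 94.97, 55.9 and 11.9 CPM. Again no iron positive library came as low as an iron negative one, and the difference was 4.68 ± 0.89 (adjusted p = 0.0185). Sema3c, a ligand in heart and vessel development, was at 0.221, 0.390, 0.269 and 0.217 against 1.495, 2.12, 1.79 and 0.572 CPM, a difference of 2.43 ± 0.45 (adjusted p = 0.0183). Here 5L was the lowest iron positive library and 3R and 3L differed little.

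The other class 3 genes did not yield a call. Sema3a, the classic growth cone collapsing factor, had a log2 fold change of 1.40 ± 0.48 (adjusted p = 0.0883) with 0.354 to 0.716 CPM against 0.748 to 3.18 CPM, and its groups did not overlap. Sema3d had 6 counts over the 4 iron negative and 89 over the 4 iron positive libraries, of which 3R held the highest level, 3.02 CPM. Sema3e, a direct plexin D1 ligand, stayed at 0.0487 to 0.663 and 0.174 to 0.847 CPM with overlapping groups. Together the 6 class 3 genes summed to 1.93 ± 0.77 TPM (a level corrected for transcript length; SD, n = 4) in the iron negative and 34.7 ± 31.5 TPM in the iron positive libraries, with Sema3f at 27.6 TPM of the latter.

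Class 4 semaphorins, membrane ligands found on lymphocytes and macrophages, were abundant in both fractions, and the 2 called ones were lower in the iron positive libraries. Sema4d, or CD100, the plexin B1 and CD72 ligand (chr13:51685529-51793747, GRCm38, minus strand), was at 309.7, 273.4, 278.6 and 242.3 CPM in the iron negative and 221.0, 184.7, 169.2 and 219.7 CPM in the iron positive libraries. Every iron positive value was below every iron negative one, with a log2 fold change of -0.47 ± 0.11 (adjusted p = 0.0278). Sema4b was at 54.9, 60.1, 58.3 and 44.8 against 39.6, 42.2, 38.3 and 35.0 CPM, a log2 fold change of -0.49 ± 0.10 (adjusted p = 0.0205), also with no overlap. Neither passed when libraries were scaled to the macrophage list, which put the all-gene median at 0.235: the log2 values were then -0.25 (adjusted p = 0.28) for Sema4b and -0.24 (adjusted p = 0.126) for Sema4d. Under that scaling 24 members were higher and 0 lower (15.0% and 0.202% of all genes), and at an unadjusted p under 0.05 the lower members numbered 1.

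Sema4a and Sema4c did not pass. Sema4a, a ligand involved in T cell priming, was at 80.7, 83.5, 80.4 and 84.4 against 92.4, 57.2, 73.0 and 78.1 CPM, so that iron positive 3L was its highest and 3R its lowest library. Its log2 fold change was -0.13 ± 0.13 and turned to 0.09 with macrophage scaling. Sema4c, a plexin B2 ligand, averaged 55.5 ± 6.7 and 56.0 ± 17.4 CPM (SD, n = 4). In TPM the 4 class 4 genes summed to 183 ± 12 in the iron negative and 157 ± 8 in the iron positive libraries, and Sema4d was the highest semaphorin of both fractions at 86.1 and 64.4 TPM.

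Among the membrane-bound semaphorins of classes 5 to 7, Sema7a, a lipid-anchored ligand of integrins and plexin C1, differed most in level (chr9:57940112-57962865, GRCm38, plus strand). It was at 2.74, 10.97, 6.72 and 4.57 CPM in the iron negative and 19.4, 182.1, 88.9 and 28.0 CPM in the iron positive libraries, without overlap. Within each fraction 3R was highest and 4R next, and the difference between fractions was 3.68 ± 0.78 (adjusted p = 0.0223). Sema6a, a transmembrane ligand of plexins A2 and A4, was at 0.0442, 0.292, 0.269 and 0.0435 against 0.648, 6.81, 6.06 and 2.29 CPM (4.58 ± 0.88, adjusted p = 0.0185). Sema6b, its relative, started from 21.6 to 23.9 CPM in the iron negative libraries and reached 28.1, 48.7, 51.6 and 32.7 CPM in the iron positive ones. That narrow iron negative range left no overlap, and the difference was 0.84 ± 0.19 (adjusted p = 0.0259).

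Sema6d and Sema5a were not called in edgeR. Sema6d, a plexin A1 ligand, averaged 27.03 ± 5.5 against 52.1 ± 30.8 CPM with overlapping groups (adjusted p = 0.155). Sema5a, a plexin A ligand with thrombospondin repeats, was at 0.751 to 1.52 against 1.94, 8.37, 2.79 and 1.72 CPM without overlap (1.76 ± 0.54, adjusted p = 0.0641), and it passed with the tag as a block (adjusted p = 0.0344). Semaphorins in all had 6 higher and 2 lower genes and 5 without a call among 13 tested, against 8.49% higher and 5.21% lower of all genes. Without Sema3a, Sema3c, Sema3g and Sema6a, which passed the filter only through the iron positive libraries, 3 of 9 were higher and 2 lower. Their median log2 fold change was 0.84. Among all genes that reached the filter in the iron negative libraries 6.0% were higher and 5.75% lower.

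Plexins are the semaphorin receptors, and the most abundant of them hardly differed. Plxnb2, the receptor of class 4 semaphorins, was at 442.4, 464.5, 461.6 and 432.6 CPM in the iron negative and 437.8, 380.2, 439.3 and 415.2 CPM in the iron positive libraries. Its groups overlapped, and its log2 fold change was -0.11 ± 0.07 (adjusted p = 0.323), turning to 0.13 with macrophage scaling. Plxnc1, the Sema7a receptor of myeloid cells, averaged 76.5 ± 11.7 against 61.7 ± 6.1 CPM and did not pass (adjusted p = 0.114). The Sema4d receptor Plxnb1 was at 1.02, 0.780, 0.761 and 0.652 CPM in the iron negative libraries against 0.997, 10.5, 5.41 and 2.73 CPM. Iron positive 3L lay inside the iron negative range while the other libraries lay above it, and the difference was 2.61 ± 0.64 (adjusted p = 0.0334).

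The A-type plexins are co-receptors of neuropilins. Plxna2 was at 3.09, 2.88, 3.54 and 2.52 against 7.43, 30.9, 18.9 and 8.54 CPM with no overlap (2.45 ± 0.45, adjusted p = 0.0183). Plxna1 averaged 108.9 ± 15.3 against 148.4 ± 29.5 CPM (0.45 ± 0.15, adjusted p = 0.0866), with iron negative 3R and 4R at 119.7 and 123.6 CPM and iron positive 5L at 121.6 CPM. All 4 tags had the higher value in the iron positive fraction, and blocking on the tag made the gene pass (adjusted p = 0.0268). Plxna4 averaged 1.65 ± 0.57 against 3.50 ± 0.98 CPM and missed the threshold in both fits (adjusted p = 0.06 and 0.0607).

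Plxnd1, the vascular plexin (chr6:115954811-115995005, GRCm38, minus strand), was at 99.4, 112.9, 107.7 and 89.6 CPM in the iron negative and 131.4, 321.9, 248.5 and 128.8 CPM in the iron positive libraries. No values overlapped, and the adjusted p was 0.051, just above the threshold (1.02 ± 0.29). Blocking on the tag gave an adjusted p of 0.0174. In TPM it went from the fifth to the second highest of the 38 members, at 28.2 ± 3.1 and 74.0 ± 40.7 TPM. A retained-intron transcript, Plxnd1-204, made up 26.0% of its TPM in iron negative and 35.4% in iron positive libraries. Protein-coding transcripts held 66.65% and 52.98%, so its TPM rank is not a rank by coding RNA.

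Nrp2, the semaphorin 3F and VEGF-C co-receptor (chr1:62703285-62818695, GRCm38, plus strand), was at 180.8, 158.7, 167.6 and 161.9 CPM in the iron negative and 292.0, 187.0, 300.0 and 211.0 CPM in the iron positive libraries. No values overlapped, and the difference was 0.57 ± 0.15 (adjusted p = 0.0434). Its order differed from that of most called members: 4R and 3L were high and 3R was the lowest iron positive library. The platelet list had a similar order, at 1576, 445.7, 1468 and 738.1 CPM in the iron positive libraries, and its part in the Nrp2 difference was not tested. Without iron positive 3L the adjusted p was 0.0824. Its partner Nrp1, which is no member, averaged 176.8 ± 10.8 and 184.6 ± 13.9 CPM (adjusted p = 0.601). Among the 8 genes of the plexin and neuropilin family 3 were higher, against 8.49% of all genes. With the tag as a block 5 were, against 12.8% of all genes in that fit.

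Ephrin ligands were low in the iron negative fraction. Efnb2, the arterial ephrin-B2 (chr8:8617434-8661242, GRCm38, minus strand), was at 1.64, 4.19, 3.27 and 2.30 CPM there and at 10.02, 95.9, 61.2 and 18.9 CPM in the iron positive libraries. No overlap was seen, and the difference was 4.03 ± 0.73 (adjusted p = 0.0183). Efna1, an ephrin-A ligand induced in endothelium by TNF, was at 0.398, 0.731, 1.16 and 0.478 against 4.54, 35.8, 22.3 and 6.52 CPM (4.63 ± 0.76, adjusted p = 0.0173). Efnb1, the highest of the 3 in iron negative TPM, was at 6.04 to 8.48 CPM and overlapped with the 6.65 to 10.4 CPM of the iron positive ones (0.25 ± 0.19, adjusted p = 0.407). The 3 ephrins summed to 4.44 ± 0.61 TPM in iron negative and 36.3 ± 29.0 TPM in iron positive libraries.

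Among the Eph receptors the pattern was split. Ephb4, the venous partner of ephrin-B2 (chr5:137350109-137378669, GRCm38, plus strand), was at 0.221, 2.24, 1.57 and 0.739 CPM against 3.79, 35.99, 27.9 and 6.25 CPM (3.96 ± 0.88, adjusted p = 0.0257). The lowest iron positive library, 3L, was above the highest iron negative one, 3R. The gene span of Ephb4 overlaps that of Zan on the opposite strand, and strand was not used in the sums. Reads from any transcript sequence that the pair shares may not be told apart, and such sharing was not checked. Ephb1 had 1 estimated count over the iron negative libraries, in 4R, and 170 over the iron positive ones, with 0.498, 5.70, 1.57 and 0.484 CPM. The ratio of these sums at equal depth was 175.8, with an exact 95% interval of 31.1 to 6985 that covers counting error only (edgeR adjusted p = 0.0185). Epha4, which binds both ephrin classes, was at 0.0884, 0.0975, 0.179 and 0.391 against 0.548, 1.66, 2.44 and 0.837 CPM (2.81 ± 0.63, adjusted p = 0.0254).

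The remaining Eph receptors had no call. Epha2, an ephrin-A1 receptor, was the highest of the 5 in TPM and stood at 42.7, 24.5, 32.1 and 42.6 CPM in iron negative and 31.5, 39.2, 26.2 and 37.1 CPM in iron positive libraries. Its ranges overlapped, and its log2 fold change was -0.09 ± 0.20, turning to 0.17 with macrophage scaling. Ephb2, an ephrin-B receptor, averaged 1.06 ± 0.32 against 1.36 ± 0.25 CPM (adjusted p = 0.431). Of the 8 ephrin and Eph genes 5 were called higher (8.49% of all genes), but Efna1, Epha4, Ephb1 and Ephb4 passed the filter only through the iron positive libraries. Among the other 4, Efnb2 was higher and 3 had no call, with a median of 0.30 on the log2 scale. Of all genes that reached the filter in the iron negative libraries 6.0% were higher. The 5 receptors summed to 16.1 ± 2.5 and 21.9 ± 6.8 TPM. Of these sums Epha2 held 15.3 and 14.3 TPM, and Ephb4 0.366 and 5.97 TPM.

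Slits and Robos were near the lower end of the iron negative range. Robo4, the Robo of endothelium (chr9:37401897-37415115, GRCm38, plus strand), was at 0.133, 1.17, 1.03 and 0.130 CPM against 5.73, 56.4, 41.6 and 13.0 CPM. The groups lay far apart, with a difference of 5.58 ± 0.94 (adjusted p = 0.0173). Robo1, the widely expressed Slit receptor, was at 0.0442, 0.731, 0.582 and 0.391 against 0.897, 4.94, 2.97 and 1.37 CPM. It had no overlap and an adjusted p of 0.052 (2.53 ± 0.72), or 0.00486 when blocked on the tag. Slit3 was at 0.707, 2.88, 1.57 and 0.826 against 2.89, 32.9, 10.9 and 5.06 CPM (3.12 ± 0.81, adjusted p = 0.0396), with iron positive 3L only just above iron negative 3R. Slit2 was at 1.64, 2.44, 1.97 and 1.74 against 4.09, 22.1, 4.62 and 3.87 CPM (2.15 ± 0.61, adjusted p = 0.0496). Library 3R was far above the other iron positive libraries, and without it the log2 fold change was 1.11 (adjusted p = 0.0182). Unc5b (chr10:60762593-60831581, GRCm38, minus strand) was at 2.08, 4.44, 2.87 and 1.57 against 10.5, 95.7, 47.0 and 12.7 CPM, a difference of 3.93 ± 0.78 (adjusted p = 0.0198). Robo1 and Robo4 passed the filter only through the iron positive libraries. The other 3 genes, Slit2, Slit3 and Unc5b, were all called higher, with a median of 3.12. Of all genes that reached the filter in the iron negative libraries 6.0% were higher.

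Rnd1, a GTPase that binds plexin A1 and lowers contractility, had the smallest adjusted p of all members, 0.0118. It was at 9.32, 6.24, 7.61 and 9.78 CPM in the iron negative and 18.6, 28.5, 25.03 and 23.7 CPM in the iron positive libraries, with no overlap and a difference of 1.54 ± 0.18. Rnd3, its relative, was at 56.0, 35.97, 42.9 and 62.8 against 46.1, 38.2, 39.9 and 58.2 CPM, with overlap (-0.12 ± 0.19, adjusted p = 0.728, and 0.11 with macrophage scaling). In both fractions 5L had the highest Rnd3 level and 3R the lowest.

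**Figure D2:**
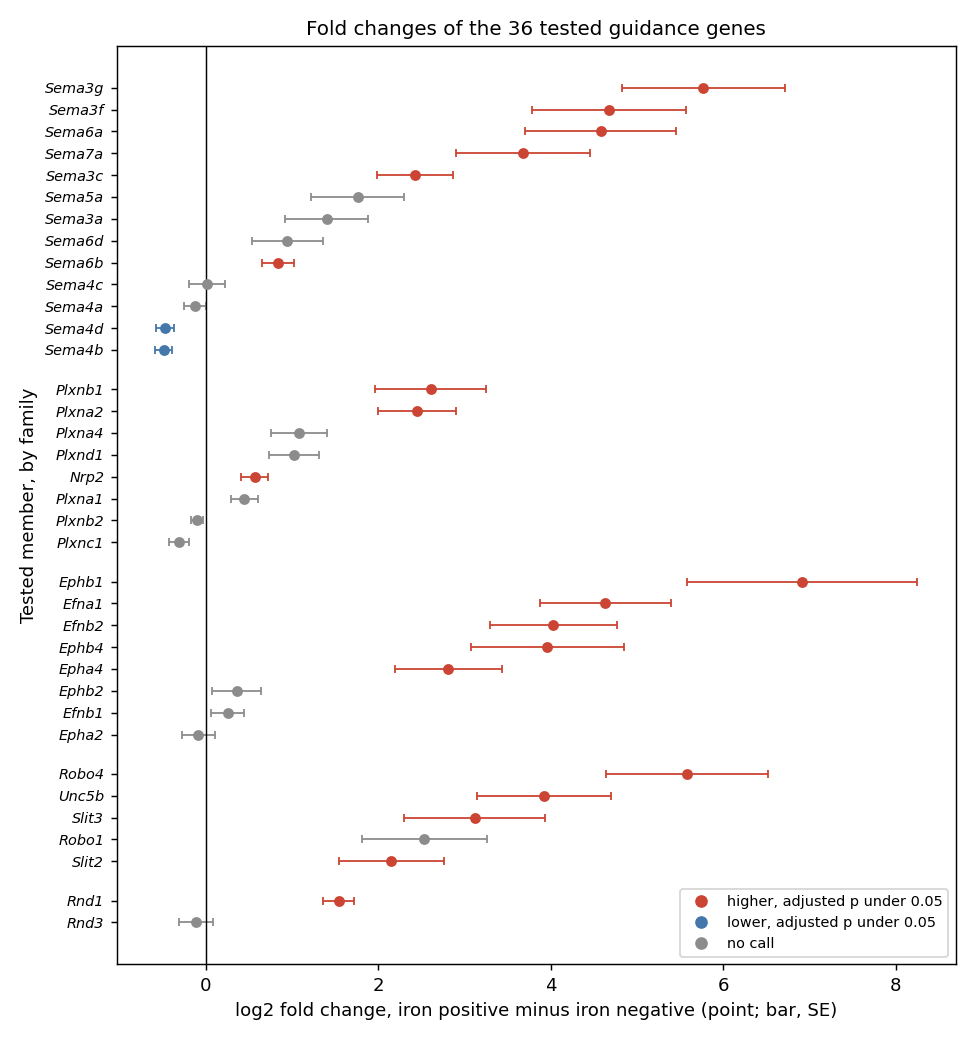
The log2 fold change, iron positive minus iron negative, of the 36 tested members by family, with the SE as a bar and the call as colour. Red points mark the 19 higher genes, blue points Sema4b and Sema4d, and grey points the 15 without a call. The Ephb1 point is a fitted value that rests on 1 iron negative count.

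Efnb2, Ephb4 and Robo4 are set side by side by their promoters, since ephrin-B2 and EphB4 form a ligand and receptor pair and Robo4 is the endothelial gene that differs from them in base makeup. Each line holds the 250 bases before the annotated start in RefSeq (GRCm38.p6), 5′ to 3′ on the gene's strand, with the GC box GGGCGG, or CCGCCC where it lies on the other strand, in capitals. The stretches are chr8:8661243-8661492 on the minus strand for Efnb2, chr5:137349859-137350108 on the plus strand for Ephb4 and chr9:37401722-37401971 on the plus strand for Robo4.
Efnb2: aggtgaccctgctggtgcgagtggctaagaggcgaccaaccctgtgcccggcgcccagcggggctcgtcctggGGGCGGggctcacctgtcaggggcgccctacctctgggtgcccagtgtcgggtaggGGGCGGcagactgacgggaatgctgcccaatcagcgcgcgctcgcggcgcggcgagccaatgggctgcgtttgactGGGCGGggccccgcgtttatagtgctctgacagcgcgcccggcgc
Ephb4: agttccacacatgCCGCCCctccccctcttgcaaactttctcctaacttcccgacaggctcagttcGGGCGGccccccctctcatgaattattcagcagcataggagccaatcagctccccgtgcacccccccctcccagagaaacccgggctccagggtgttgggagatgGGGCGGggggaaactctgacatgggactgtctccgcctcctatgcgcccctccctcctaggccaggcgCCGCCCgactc
Robo4: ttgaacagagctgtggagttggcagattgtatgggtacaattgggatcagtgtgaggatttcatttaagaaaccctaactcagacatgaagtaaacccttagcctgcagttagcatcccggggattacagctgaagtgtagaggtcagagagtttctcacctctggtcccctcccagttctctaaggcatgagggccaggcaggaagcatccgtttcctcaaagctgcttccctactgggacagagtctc
Efnb2 had 3 GC boxes, Ephb4 had 4 and Robo4 had 0. RefSeq windows of 300 bases, 250 before and 50 after the start, were found for 33 of the 38 members, 44 windows in all. The GC box, searched on both strands, occurred in 16 of the 18 windows of members that were higher (88.9%) and in 16 of 24 windows of tested members that were lower or not called (66.7%), against 60.6% of the 12998 windows of all tested genes and 35.7% of all 32851 windows. CGGAAG, the core of ETS factor sites, was also searched on both strands, and overlap with a GC box was not excluded. It occurred in 3 of 44 member windows (6.82%, 2 of 18 for higher members and 1 of 24 for the other tested ones). The shares were 29.5% of the windows of tested genes and 16.9% of all windows. The 44 include the windows of the untested Sema3d and Sema3e. Windows of 1 gene overlap or share a locus, and these matches describe letters and not binding.

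Levels per transcript length put the fractions in different orders. In iron negative libraries the highest members were Plxnb2 at 110.8 ± 7.4, Sema4d at 86.1 ± 7.3, Sema4a at 54.3 ± 6.9, Nrp2 at 33.0 ± 1.6 and Plxnd1 at 28.2 ± 3.1 TPM (SD, n = 4). In iron positive libraries Plxnb2 remained first at 110.1 ± 5.3 TPM, followed by Plxnd1 at 74.0 ± 40.7, Sema4d at 64.4 ± 5.5, Sema4a at 50.8 ± 8.0 and Nrp2 at 50.2 ± 11.7 TPM. Plxnd1 and Sema4d do not differ in that order beyond the spread of Plxnd1. Sema7a went from rank 16 to rank 6, at 2.63 ± 1.51 and 37.5 ± 35.6 TPM, and Sema3f from rank 17 to rank 8. TPM here sums all transcripts of a gene, and protein-coding ones held 42.39% of Sema3f in iron negative and 58.09% in iron positive libraries.

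Ligand and receptor levels can be read side by side on this scale. They are levels in bulk RNA, and whether partners sit on the same or neighbouring cells, or signal, was not tested. Of class 3, Sema3f at 1.40 and 27.6 TPM stood beside Nrp2 at 33.0 and 50.2 TPM. For Sema4d at 86.1 and 64.4 TPM the high-affinity receptor Plxnb1 was at 0.238 and 1.29 TPM and Plxnb2 at 110.8 and 110.1 TPM. Sema7a had Plxnc1 beside it at 15.6 and 12.6 TPM. The Efnb2 level of 0.783 and 14.2 TPM compared with Ephb4 at 0.366 and 5.97 TPM, and the 2 Slits at 0.938 and 5.46 TPM with the 2 Robos at 0.486 and 12.9 TPM. Both partners of the ephrin-B2 and EphB4 pair were higher in the iron positive fraction, whereas of Sema4d and its 2 plexins the ligand was lower, Plxnb1 higher and Plxnb2 without a call.

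**Figure D3:**
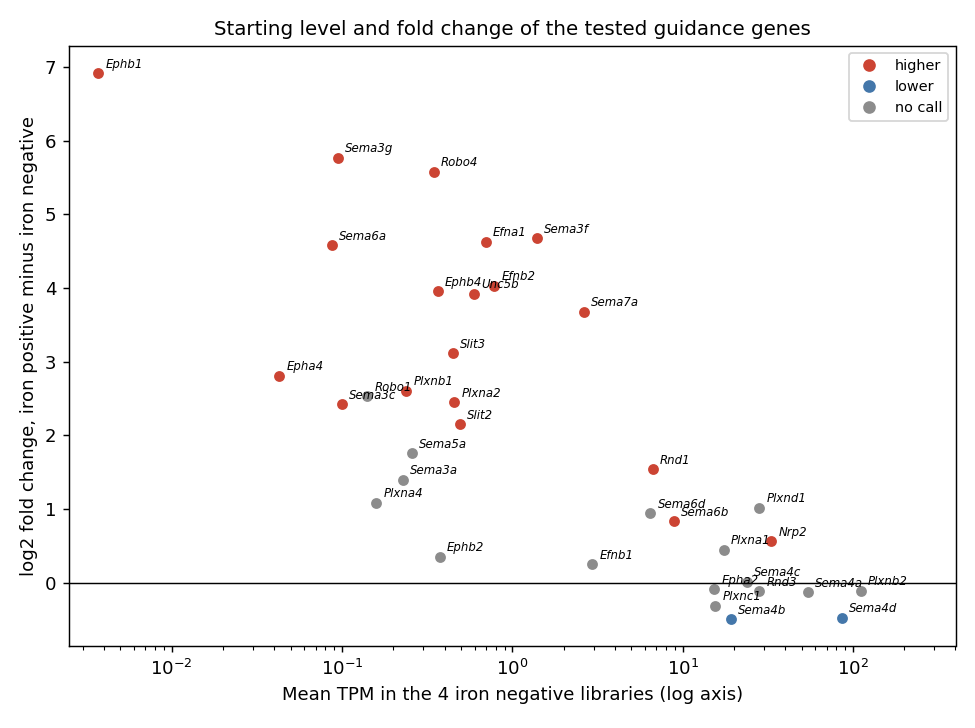
Mean TPM in the 4 iron negative libraries (log axis) against the log2 fold change for each tested member, coloured by call. The higher members lie mostly at the left, at low iron negative levels, and Sema4b and Sema4d lie below 0 at the right, while Plxnb2, the highest at 110.8 TPM, lies close to 0.

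The starting level and the difference went together among the members, as they did among all genes. Of 20 tested members with a mean under 5 CPM in the iron negative libraries, 10 passed the filter only through the iron positive libraries and are set aside here. Among the other 10, 7 were higher and 0 lower, with a median log2 fold change of 2.53. Among the 2315 genes of that level that reached the filter in the iron negative libraries 14.4% were higher, 0.605% were lower and the median was 0.22. Of 13 members at 20 CPM or more, 2 were higher (Sema6b and Nrp2), 2 lower and 9 without a call, with a median of -0.09, and among the 6892 such genes 2.76% were higher and 9.17% lower. The level limits were chosen after the data were seen, and a low iron negative level is itself part of the difference.

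Within the iron positive fraction the higher members varied together. In 16 of the 19 (84.2%) library 3R was highest and 4R second, an order found in 62.2% of all 1133 higher genes and 18.5% of all tested genes. Exceptions were Nrp2, Sema6b and Epha4, which all had 4R as the highest library. Of the 19, 8 passed the filter on low counts only through the iron positive libraries. The counts above and the ratios below were not redone without them. The 19 had a median ratio of highest to lowest iron positive library of 9.14. After each value was divided by the endothelial sum of its library, that ratio had a median of 1.99 and was smaller in 15 of the 19. Divided by the pericyte sum it was 1.99, by the fibroblast sum 2.12 and by the macrophage sum 12.0.

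Single members show the range of this. Unc5b spanned 9.14-fold over the iron positive libraries in CPM and 1.22-fold per endothelial sum, Sema7a 9.39-fold and 1.23-fold, and Efnb2 9.57-fold and 1.45-fold. By contrast Nrp2 spanned 1.604-fold in CPM and 12.9-fold per endothelial sum, Rnd1 1.53-fold and 5.39-fold, and Sema6b 1.83-fold and 4.78-fold. Sema3c also widened, from 3.70-fold to 5.84-fold, so in these 4 of the 19 the spread grew per endothelial sum. Narrowing was small in some of the other 15, such as Slit2, from 5.70-fold to 4.37-fold, and Epha4, from 4.45-fold to 3.21-fold. The 3 vascular and stromal sums themselves share the order of libraries, so the data cannot tell which of these cell types a member varied with, and their part in the difference between fractions was not tested. The ratios were chosen after the data were seen.

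**Figure D4:**
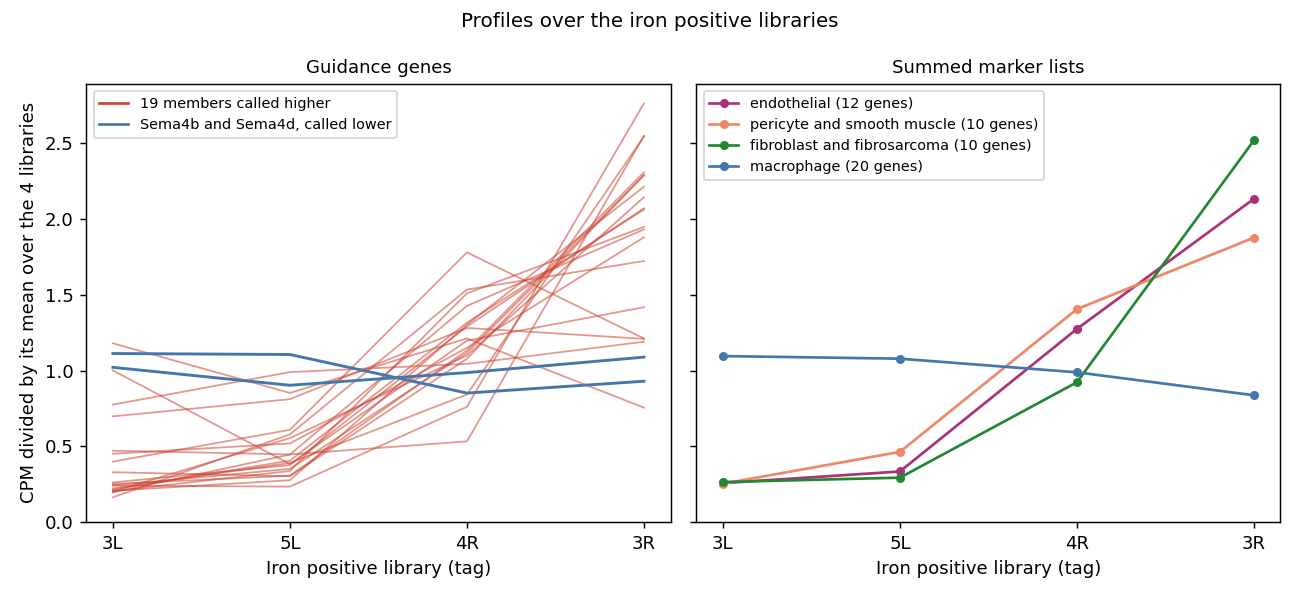
CPM of each called member (left) and of the summed marker lists (right) in the 4 iron positive libraries, each divided by its own mean over those libraries, with lines joining the values of 1 gene or list and the libraries set out by endothelial sum. Most red lines and the endothelial, pericyte and fibroblast sums are lowest in 3L or 5L and highest in 3R, while Sema4b, Sema4d and the macrophage sum stay near 1.

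Another 92 genes of these pathways are no members. Of 66 tested, 10 were higher, 4 lower and 52 had no call, and 26 were too low to test. These are 15.2% higher and 6.06% lower, against 8.49% and 5.21% of all genes, and the median of the tested ones was 0.29 on the log2 scale. Among the 10, Itga1, Erbb2 and Ntn1 passed the filter on low counts only through the iron positive libraries. Such genes could hardly show anything but a higher iron positive level, and the counts for these pathway genes were not redone without them. With the tag as a block 18 were higher and 7 lower (27.3% and 10.6%, against 12.8% and 9.39% of all genes). With macrophage scaling 16 were higher and 0 lower, so the 4 lower calls given below, of Cd72, Rac1, Vav2 and Adam17, were all lost, with log2 values of -0.47 (adjusted p = 0.0559), -0.03 (0.842), -0.19 (0.327) and -0.13 (0.397). Itga1, the collagen-binding integrin chain that pairs with the Sema7a receptor chain Itgb1, averaged 0.917 ± 0.688 against 21.9 ± 16.6 CPM (4.58 ± 0.77, adjusted p = 0.0173), whereas Itgb1 itself was at 509.5 ± 36.4 and 541.0 ± 69.0 CPM without a call. Cd72, the B-cell and macrophage receptor of Sema4d, averaged 327.1 ± 18.6 against 199.6 ± 32.8 CPM, a log2 fold change of -0.71 ± 0.12 (adjusted p = 0.0173). In its list of 9 non-plexin receptors and co-receptors, 6 were tested, and Met (1.54), L1cam (1.13) and Erbb2 (3.44, given after its value was seen) were also higher.

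Of 36 intracellular transducers 34 were tested, 3 were higher and 2 lower (8.82% and 5.88%), close to the shares of all genes. Nck2, an adaptor of Eph and Robo signalling, had a log2 fold change of 1.83 ± 0.26 (adjusted p = 0.0172), Sh2d3c, an Eph-binding adaptor, 1.43 ± 0.27, and the Rac exchange factor Tiam1 1.43 ± 0.33. Rac1 (-0.27 ± 0.06) and its exchange factor Vav2 (-0.43 ± 0.11) were lower. Among 20 other Slit, Robo, netrin, repulsive guidance and FLRT genes 13 were tested and 2 were higher, Flrt2 at 2.77 ± 0.41 and the Unc5b ligand netrin 1 (Ntn1) at 1.84 ± 0.48. Of 14 other ephrin and Eph genes 4 were tested and Epha5 was higher (0.80 ± 0.22, adjusted p = 0.0462, or 0.0691 when blocked on the tag). Of the 4 shedding proteases Adam17 was lower (-0.37 ± 0.08). None of the other plexins and neuropilin (3 tested), the other semaphorins (1 tested of 5) or Rnd2 was called, and unadjusted p-values under 0.05 numbered 1 among those 5 genes.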

How the data were processed

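Bulk RNA of 4 iron positive and 4 iron negative fractions was sequenced. Per the submitters' processing notes, abundances were made with kallisto 0.46.2 on mm10, with no transcript release stated in the sources used here. Per the file headers, each library's deposited table holds estimated counts per transcript, not normalized, deposited TPM values, and lengths as other values, and no replicates were pooled. Of 119414 transcripts, 116728 were matched to GENCODE release M21 (GRCm38), and the 2686 others, 0.888% to 0.961% of counts, were left out. Estimated counts were summed per gene over 35975 genes, without strand, and rounded. Genes passed filterByExpr (at least 0.452 CPM in 4 libraries), which left 13343. Fractions were compared in R 4.3.3 with edgeR 4.0.16 (glmQLFit and glmQLFTest, fraction as the only term), TMM scaling and Benjamini-Hochberg adjusted p under 0.05. CPM were computed here. SEs are the coefficient over the square root of the F value and are approximate.

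The members and gene lists were chosen with earlier results of these data known. All members are reported. Per-library values were given for called members, up to 5 per direction and family, and for the 2 highest by TPM, with some others added after their values were seen. Other pathway genes were named up to 3 per direction and list by adjusted p. Alternatives were other scalings, DESeq2 1.42.0, limma 3.58.1, other filters, TPM with pseudocounts of 0.1 and 1, and leaving out each library. The steps were tested on simulated data for this comparison over 13208 genes, where edgeR called 34 of 50 genes changed 2-fold and 44 of 49 changed 4-fold. Equal tags in the labels pair the libraries: across genes, same-tag deviations correlated at 0.551 (3L), 0.553 (3R), 0.276 (4R) and 0.331 (5L), all above the limit of 0.1, while the 12 pairs of different tags ranged from -0.496 to 0.26, so 4R is hardly above the highest of them.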

Additional observations from a re-analysis of the deposited data

Results flagged for a closer look

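Of 72 groups of 4 libraries (36 tested members in both fractions), 3 held a library whose gap to its nearest neighbour exceeded Dixon's limit for 4 values, and chance alone gives about 1 in 20. Sema5a was at 8.37 CPM in iron positive 3R, with the others at 1.72 to 2.79 CPM and a gap of 0.839 of the range. Slit2 was at 22.1 CPM in iron positive 3R, with the others at 3.87 to 4.62 CPM and a gap of 0.959 of the range. Ephb1 was at 0.0448 CPM in iron negative 4R, which is 1 estimated count, with the others at 0, so the gap was 1.0 of the range.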

How the results depend on the processing

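Members higher (19 with TMM and edgeR) numbered 2 with limma voom (Rnd1 and Ephb1), 7 on log2(TPM + 1), and 0 to 24 when 1 library was left out, with 0 without iron negative 3L, 3R or 4R and 11 without iron positive 4R. Members lower (2) numbered 0 with macrophage scaling, 1 with voom and on either TPM scale, and 0 to 2 with a library left out. These lower members are all semaphorins, and the same values hold for semaphorins lower. Semaphorins higher (6) numbered 0 with voom, 3 on log2(TPM + 1) and 0 to 8 with a library left out. Plexins and neuropilin higher (3) numbered 6 with macrophage scaling and DESeq2, 0 with voom, 1 and 0 on log2(TPM + 0.1) and log2(TPM + 1), and 0 to 5 with a library left out. Ephrins and Eph receptors higher (5) numbered 1 with voom, 3 with a filter of 1 CPM in 4 libraries, 2 on log2(TPM + 1) and 0 to 5 with a library left out. Slit, Robo and Unc5b higher (4) numbered 0 with voom, 2 and 1 on the TPM scales and 0 to 5 with a library left out, and Rnd GTPases higher (1) 0 to 1. Over all genes, 1133 higher and 695 lower became 1705 and 1253 with the tag as a replicate block, 2008 and 27 with macrophage scaling (98.7% higher, against 62.0% with TMM), 1703 and 1070 with DESeq2, 189 and 273 with voom, 706 and 270 on log2(TPM + 0.1), 413 and 205 on log2(TPM + 1), 362 lower with library totals, and 0 to 1487 higher and 0 to 979 lower with a library left out. In DESeq2 with a library left out, added after the data were seen, members higher numbered 18 to 26, against 7.99% to 14.2% of all genes. Members lower numbered 2 to 3 in those fits, for which the share of all genes lower was not taken. The cause of these changes was not tested. With the tag as a block 23 members were higher and 2 lower: Sema5a, Plxna1, Plxnd1 and Robo1 were added, and it changed no other member's call.

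Only members without a call changed direction. With macrophage scaling Sema4a was at 0.0869, Plxnb2 at 0.13, Epha2 at 0.17 and Rnd3 at 0.11. Sema4c was at -0.034 with voom, -0.0047 without a filter, -0.0313 with the tag as a block and between -0.19 and 0.17 with a library left out, negative without iron negative 3L or iron positive 3R. With a library left out Epha2 was between -0.23 and 0.0171, positive without iron negative 3L or 5L or iron positive 4R, and Rnd3 was between -0.26 and 0.0156, positive without iron negative 5L. Low iron negative counts, such as the 1 count of Ephb1, limit the precision of the largest fold changes.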
